A study of Mus musculus with 16 samples.

Results

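The genes described here are 8 mouse genes of the retinoic acid response: Stra8, Crabp1, Crabp2, Rara, Rarb, Rarg, Dhrs3 and Cyp26a1. They were found by their symbols among the 27179 genes of the count table, and all 8 were present. Stra8 was chosen by its measured counts, for a contrast between the 2 culture media of the study. That contrast was in 1 direction at the start and in the other at the end. The level of Stra8 was nevertheless higher at the end than at the start in both media. Because of this choice, its values are a description without a test. The other 7 belong to the same pathway. A minimum-count filter was passed by 7 of the 8 genes, and Cyp26a1, with 29 counts over all libraries, did not pass it. Rarb passed only through libraries where it was high, so a difference was built into its choice and it has no test here either. The tests therefore cover 5 genes, and the rest is given as levels and counts.

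RNA of mouse embryonic stem (ES) cells was sequenced in 16 libraries, 2 for each of 8 groups, which combine 2 media with collection at 0, 12, 24 and 40 h of exit from the naive pluripotent state. All groups descend from ES cells grown in serum and LIF (leukaemia inhibitory factor) that were adapted for 3 passages to their medium and used for at most 9 passages. Both media held LIF and the 2i pair, which is 3 uM CHIR99021, an inhibitor of GSK3, and 1 uM PD0325901, an inhibitor of MEK. The serum/LIF+2i medium had a knockout DMEM base with 10% fetal bovine serum, and the 2i/LIF medium was serum-free, with N-2 and B-27 supplements in DMEM/F-12 and Neurobasal.

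Exit began when LIF and the inhibitors were withdrawn. The 2i/LIF cells kept their base medium and supplements, and the serum/LIF+2i cells were moved to a serum-free mix of glutamine-free DMEM and Neurobasal with N-2, B-27 and 2 mM glutamine. Serum, base medium and supplements thus changed together for the serum/LIF+2i cells, called the serum arm below, the other being the 2i arm, and their parts in a difference between the media cannot be told apart. The ES cell line is not given in the sources used here. The labels do not say that replicates were separate cultures, so the p-values measure the spread between these libraries. Total counts ran from 5931381 to 11142744 per library, 16393 to 18392 genes had at least 1 count, and the 2 replicates of a group correlated at 0.991 to 0.995 across genes.

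Retinoic acid is made from vitamin A (retinol) by retinol dehydrogenases and then by retinaldehyde dehydrogenases. In the cell it is carried by the binding proteins Crabp1 and Crabp2. It enters the nucleus to bind the receptors Rara, Rarb and Rarg, which sit on DNA with RXR partners. Receptors without ligand hold co-repressors, and ligand exchanges these for co-activators. Several targets damp the signal again: Cyp26a1 oxidises retinoic acid, and Dhrs3 turns retinaldehyde back into retinol. Stra8 is named for its stimulation by retinoic acid and is best known in germ cells, where it drives entry into meiosis. Genes of the germ line are normally kept low in ES cells by repressor complexes and DNA methylation.

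Receptor pairs bind direct repeats of a hexamer, and the repeat with a spacer of 5 bases (DR5) is the classical element in the promoters of Rarb and Cyp26a1. Promoter windows of 300 bases, from 250 bases before to 50 after the annotated start, were available from RefSeq (GRCm38.p6) for 7 of the 8 genes; Crabp2 had none. The consensus hexamer AGGTCA and its variants, which read AGTTCA or else GGGTCA or else GGTTCA, were searched on both strands as direct repeats with a spacer of 1, 2 or 5 bases (DR1, DR2, DR5). A DR5 stood in a window of 2 of the 7 genes, Rarb and Cyp26a1, where it was known beforehand. It stood in 0.0974% of all 32851 windows. Shares here and below count windows rather than genes, and a gene can have more than 1 window. A DR1 (0.222% of windows) or DR2 (0.268%) was in none of the 7. The elements are printed because they mark the members with a receptor repeat beside their start, with the hexamers in capitals and the strand of the gene from 5′ to 3′.
Rarb, chr14:16575507-16575535, minus strand, GRCm38: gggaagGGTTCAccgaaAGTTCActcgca
Cyp26a1, chr19:37697558-37697797, plus strand, GRCm38: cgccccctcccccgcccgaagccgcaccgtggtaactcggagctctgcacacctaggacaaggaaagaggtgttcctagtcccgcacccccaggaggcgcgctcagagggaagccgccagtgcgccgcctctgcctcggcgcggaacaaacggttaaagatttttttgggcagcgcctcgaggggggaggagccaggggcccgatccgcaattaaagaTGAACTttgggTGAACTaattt

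The Rarb repeat covered positions -53 to -37 from the RefSeq start. In the GENCODE annotation of the same assembly it also lay inside exon 1 of 2 Rarb transcripts, so it is promoter for 1 start and transcribed for others. The Cyp26a1 repeat covered positions -32 to -16 and was read from the opposite strand as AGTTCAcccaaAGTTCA. The window of Stra8 held no direct repeat of these spacings but held the hexamer AGGTCA at 2 places, and both lay in exon 2 of a longer GENCODE transcript of Stra8. They are printed because Stra8 is the member with the largest difference between media.
Stra8, chr6:34920742-34920771, plus strand, GRCm38: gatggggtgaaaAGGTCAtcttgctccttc
Stra8, chr6:34920898-34920927, plus strand, GRCm38: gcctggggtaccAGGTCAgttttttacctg

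The single hexamer AGGTCA was in a window of 3 of the 7 genes (Stra8, Rara and Rarg) and in 16.3% of all windows. CACGTG, the site type of the germline repressor pair Mga and Max, was found in windows of Rara alone among the 7 (7.15% of all windows). GGCGGGAA, the type of E2f6, was found in none of the 7 (2.19% of all windows). These matches describe letters in a window and were not measured as binding.

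Most of the tested genes rose during exit in both media. In the 2i arm, 4 of 5 were higher at 12 h than at 0 h (21% of all 14288 genes tested were called higher), 4 of 5 at 24 h (29.2% of genes) and 4 of 5 at 40 h (34.1%), by edgeR's quasi-likelihood test at an adjusted p under 0.05. For the serum arm, 5 of 5 were higher at 12 h (25.3% of genes), 4 of 5 at 24 h (32.4%) and 5 of 5 at 40 h (35.3%). None of the 5 was called lower in these comparisons, where 23.7%, 29.6% and 34.7% of genes were in the 2i arm and 25.9%, 32% and 35.3% in the serum arm. Comparisons within a medium share their 0 h libraries. The median log2 change of the 5 genes at 40 h was 1.37 in the 2i arm and 1.45 in the serum arm, where the medians over all genes were 0.01 and -0.00.

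Among the genes called at 40 h in the 2i arm, Crabp2 and Rarg rose most and Rara least. Dhrs3 was highest at 12 h and fell again by 24 h in both media. The plot of levels by hour shows each library.

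**Figure D1:**
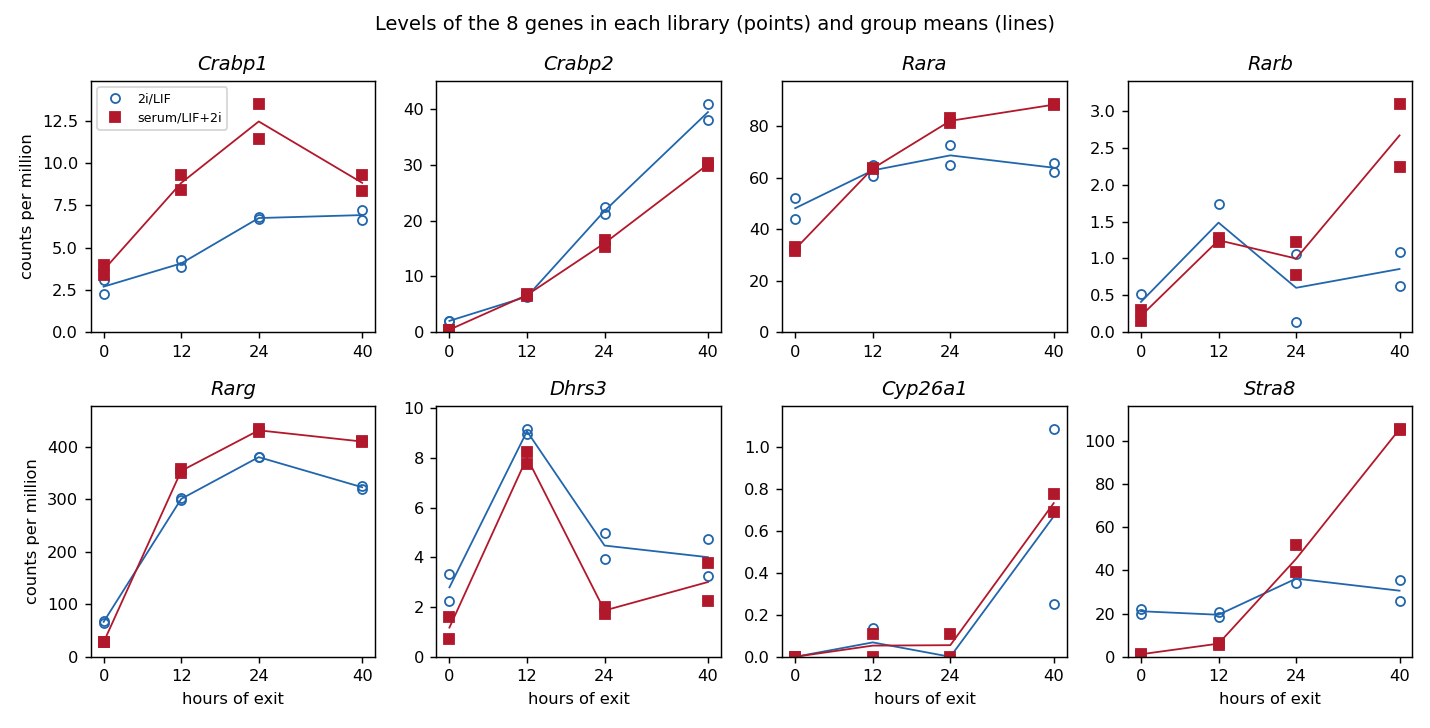
Counts scaled to library size (CPM, vertical axes from 0, a separate scale for each gene) against hours of exit for the 8 genes. Open circles are 2i/LIF libraries, filled squares serum/LIF+2i libraries, and lines join group means. Stra8 in serum/LIF+2i runs from 0.882 and 1.47 CPM at 0 h to 105.0 and 105.6 CPM at 40 h, and Dhrs3 peaks at 12 h in both media.

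Among the carriers, Crabp2 takes retinoic acid to the receptors in the nucleus. It is encoded at chr3:87948666-87953376 (GRCm38, plus strand). In the 2i arm its level was 2.07 and 1.97 CPM at 0 h, 6.44 and 6.28 at 12 h, 21.1 and 22.3 at 24 h, and 37.9 and 40.9 at 40 h in the 2 replicates. Libraries of the serum arm had 0.441 and 0.441 CPM at 0 h, which is 3 counts in each library, then 6.49 and 6.81 at 12 h, 16.6 and 15.3 at 24 h, and 29.8 and 30.3 at 40 h. Each time stood clear of the one before in both media. The rise to 40 h was 19.4-fold in the 2i arm (log2 4.28 ± 0.19 SE, edgeR adjusted p = 2.14e-42). The rise in the serum arm was called too (edgeR adjusted p = 4.89e-44), and the ratio of summed counts was 68.2, with a 95% counting interval of 31.2 to 186 because the start was so low.

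Crabp1, the carrier best known for holding retinoic acid in the cytosol and passing it to breakdown, is encoded at chr9:54764748-54773110 (plus strand). Its level in the 2i arm was 3.10 and 2.28 CPM at 0 h, 4.25 and 3.88 at 12 h, 6.80 and 6.69 at 24 h, and 6.64 and 7.20 at 40 h. The serum arm had 3.38 and 3.97 CPM at 0 h, 8.38 and 9.26 at 12 h, 13.5 and 11.4 at 24 h, and 8.36 and 9.29 at 40 h. In the serum arm the 24 h libraries were the highest, and the 40 h libraries lay beside those of 12 h. At 40 h it was 2.58-fold above 0 h in the 2i arm (log2 1.37 ± 0.28 SE, edgeR adjusted p = 6.27e-06) and 2.39-fold in the serum arm (log2 1.26 ± 0.22 SE, edgeR adjusted p = 3.32e-07).

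The balance of the carriers turned over during exit. Per length of transcript, the ratio of Crabp2 to Crabp1 rose from 0.631 ± 0.116 (SD, n = 2) at 0 h to 4.69 ± 0.02 at 40 h in the 2i arm. In the serum arm it rose from 0.0994 ± 0.0112 to 2.81 ± 0.18. At 0 h Crabp1 was thus the more abundant carrier transcript in both media, and at 40 h Crabp2 was.

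Rarg was the most abundant receptor transcript per length in all 8 groups. Its gene spans chr15:102234938-102257517 (minus strand). In the 2i arm it was at 64.3 and 69.0 CPM at 0 h, 299 and 303 at 12 h, 381 and 380 at 24 h, and 320 and 326 at 40 h. In the serum arm it was at 27.3 and 28.5 CPM at 0 h, 359 and 350 at 12 h, 435 and 428 at 24 h, and 412 and 409 at 40 h. Most of the rise was complete at 12 h, by 4.51-fold in the 2i arm (log2 2.17 ± 0.05 SE, edgeR adjusted p = 4.09e-70) and 12.7-fold in the serum arm (log2 3.67 ± 0.06 SE, edgeR adjusted p = 3.95e-89). The groups of the 2 media crossed, with the serum arm below the 2i arm at 0 h and above it at 12, 24 and 40 h, and libraries of the 2 media did not overlap at any time.

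Rara (chr11:98927818-98974942, plus strand), the receptor found in most tissues, changed less. Its level in the 2i arm was 43.9 and 52.3 CPM at 0 h, 60.7 and 64.8 at 12 h, 72.5 and 64.7 at 24 h, and 62.1 and 65.5 at 40 h. Libraries of the serum arm had 31.6 and 32.9 CPM at 0 h, 63.4 and 63.7 at 12 h, 81.1 and 82.9 at 24 h, and 88.6 and 88.0 at 40 h. The 3 later groups of the 2i arm overlapped one another, whereas in the serum arm each time lay above the one before without overlap, although the step from 24 to 40 h was not called (edgeR adjusted p = 0.133). By 40 h it had risen 1.32-fold in the 2i arm (log2 0.40 ± 0.08 SE, edgeR adjusted p = 6.73e-06) and 2.74-fold in the serum arm (log2 1.45 ± 0.08 SE, edgeR adjusted p = 1.12e-35).

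Rarb, a classical direct target of the receptors, was barely transcribed. It had 149 counts in all libraries, and it passed the filter through both 40 h libraries of the serum arm and 1 library of the 2i arm at 12 h. Its counts in the 2i arm were 3 and 2 at 0 h, 9 and 13 at 12 h, 1 and 7 at 24 h, and 5 and 8 at 40 h. Counts of the serum arm were 1 and 2 at 0 h, 9 and 12 at 12 h, 7 and 12 at 24 h, and 26 and 32 at 40 h. The 40 h libraries of the serum arm were thus the highest of all 16, and the 0 h libraries of both media were among the lowest.

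Against 0 h, the ratio of Rarb counts at 40 h was 12.0 in the serum arm (95% counting interval 3.91 to 59.9) and 2.10 in the 2i arm (0.702 to 7.52). These are descriptions, since the 40 h libraries of the serum arm are the ones that let the gene through the filter. The gene (chr14:16430839-16819156, minus strand) shares exonic sequence with Top2b and Gm48162 on the other strand. Whether counting used the strand is not given in the sources used here, so these few counts are uncertain.

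Set per length, the 3 receptors summed to 32.5 ± 2.4 CPM per kilobase (SD, n = 2) at 0 h in the 2i arm and 16.6 ± 0.5 in the serum arm. At 24 h the sums were 135 ± 1 and 155 ± 1. Rarg made up 63.8% ± 1.5 of the sum at 0 h in the 2i arm and 52.4% ± 0.1 in the serum arm, and between 85.1% and 87.6% in all later groups. Rarb stayed under 1% throughout, at 0.641% ± 0.148 in its highest group. The ratio of Rarg to Rara per length went from 1.79 ± 0.13 to 6.52 ± 0.16 in the 2i arm and from 1.11 ± 0.00 to 5.98 ± 0.01 in the serum arm between 0 and 40 h.

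**Figure D2:**
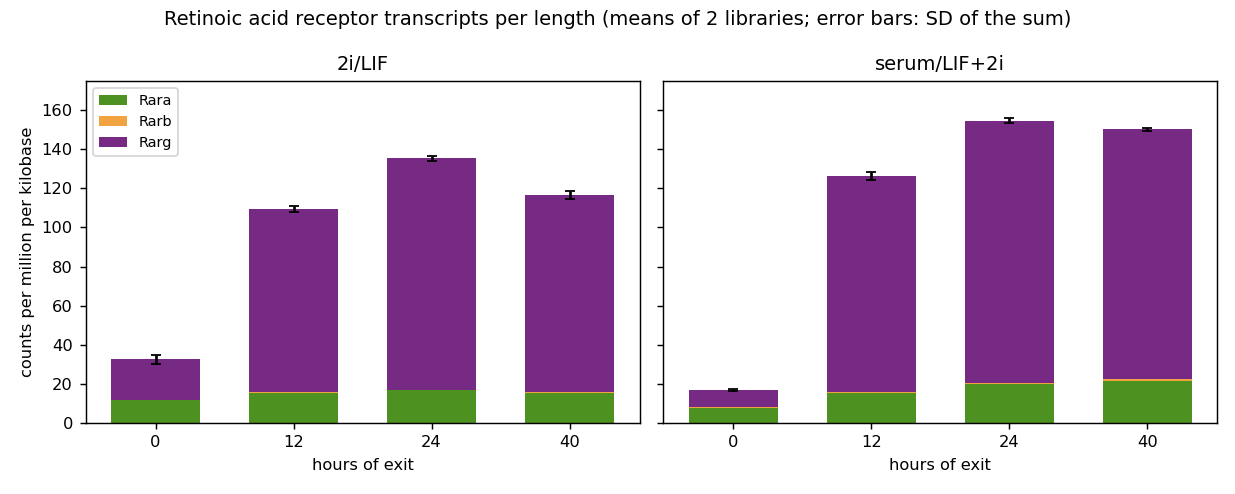
Stacked bars of CPM per kilobase of transcript (vertical axis from 0) for Rara, Rarb and Rarg at each hour of exit, for 2i/LIF on the left and serum/LIF+2i on the right. Bars are means of 2 libraries, and error bars are the SD of the sum. Rarg makes up most of the sum after 0 h, and the Rarb segment is too thin to see well.

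Of the enzymes, Dhrs3 (chr4:144892827-144928209, plus strand) had a transient peak. Its level in the 2i arm was 2.24 and 3.34 CPM at 0 h, 9.18 and 8.96 at 12 h, 4.998 and 3.951 at 24 h, and 3.26 and 4.76 at 40 h. Serum-arm levels were 0.735 and 1.62 CPM at 0 h, 8.24 and 7.77 at 12 h, 1.99 and 1.73 at 24 h, and 2.24 and 3.77 at 40 h. The 12 h libraries were the highest in each medium, without overlap. The rise to 12 h was 3.20-fold in the 2i arm (log2 1.68 ± 0.27 SE, edgeR adjusted p = 8.54e-08) and 6.72-fold in the serum arm (log2 2.75 ± 0.33 SE, edgeR adjusted p = 1.51e-12). From 12 to 24 h it fell by 1.01 ± 0.24 (log2, SE) in the 2i arm (edgeR adjusted p = 0.000298) and by 2.10 ± 0.27 in the serum arm (edgeR adjusted p = 3.5e-11). Dhrs3 at 40 h was called against 0 h in the serum arm (log2 1.32, edgeR adjusted p = 0.00179), but without replicate 1 at 0 h the adjusted p was 0.0857, and without replicate 2 at 40 h it was 0.0772.

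Cyp26a1 (chr19:37697798-37701536, plus strand), the oxidase that clears retinoic acid, had 0 counts in all 4 libraries at 0 h. It had at most 1 count in any library at 12 or 24 h. At 40 h it had 2 and 8 counts in the 2i arm and 8 and 8 in the serum arm. By the lower 95% counting limit, the 40 h level was at least 1.81-fold higher in the 2i arm and at least 2.39-fold higher in the serum arm (2.69-fold and 3.31-fold against a floor of 3 counts over the 0 h group). The limit in the 2i arm rests on replicate 2, since the 2 counts of replicate 1 are under that floor. The ratio between media at 40 h was 1.12 (95% counting interval 0.478 to 2.76), so a difference was not detectable at this depth. These intervals and floors cover counting error only.

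Stra8 (chr6:34920163-34939344, plus strand) began high in 1 medium and low in the other. In the 2i arm its level was 22.2 and 19.9 CPM at 0 h, 20.7 and 18.2 at 12 h, 34.0 and 38.3 at 24 h, and 25.7 and 35.5 at 40 h. The serum arm had 0.882 and 1.47 CPM at 0 h, 5.68 and 6.49 at 12 h, 39.0 and 51.6 at 24 h, and 105.0 and 105.6 at 40 h. The order of the 8 groups ran from the serum arm at 0 h, the lowest, through the serum arm at 12 h, then the 4 groups of the 2i arm, up to the serum arm at 24 h and at 40 h. Within that order, the 2i arm at 12 h and at 0 h overlapped, as did the 2i arm at 40 h and at 24 h, and the other neighbours did not.

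As a description, Stra8 at 40 h was 88.4-fold above 0 h in the serum arm (log2 6.47 ± 0.19 SE) and 1.45-fold above it in the 2i arm (log2 0.53 ± 0.14 SE). Serum/LIF+2i cells had 17.6-fold less Stra8 than the 2i arm cells at 0 h, 3.16-fold less at 12 h, 1.26-fold more at 24 h and 3.46-fold more at 40 h. In these bulk libraries, more cells with the transcript and more transcript per cell cannot be told apart, and the same holds for every level given here.

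The steps between later times were tested too. Where 1 of the 5 genes was called in a direction, that count is near the share of all genes. From 12 to 24 h in the 2i arm, 3 of 5 genes were called higher (17.4% of all genes) and 1 lower (17.7%), and in the serum arm 4 higher (24.2% of genes) and 1 lower (24.2%). In both media the gene that fell was Dhrs3. The rise of Crabp1 in this step was not called by DESeq2 in the 2i arm (adjusted p = 0.0669) or the serum arm (adjusted p = 0.105). It was also lost in each medium when some single libraries were left out. From 24 to 40 h in the 2i arm, Crabp2 was the 1 gene called higher (22.2% of all genes) and Rarg the 1 called lower (24.5%). In the serum arm the same step had Crabp2 higher (25.9% of all genes) and Crabp1 lower (24.6%). The call for Crabp1 there (log2 -0.50 ± 0.15 SE, edgeR adjusted p = 0.00465) was lost with DESeq2 (adjusted p = 0.0996). It was also lost without replicate 1 at 24 h (log2 -0.38) and without replicate 1 at 40 h (log2 -0.43).

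**Figure D3:**
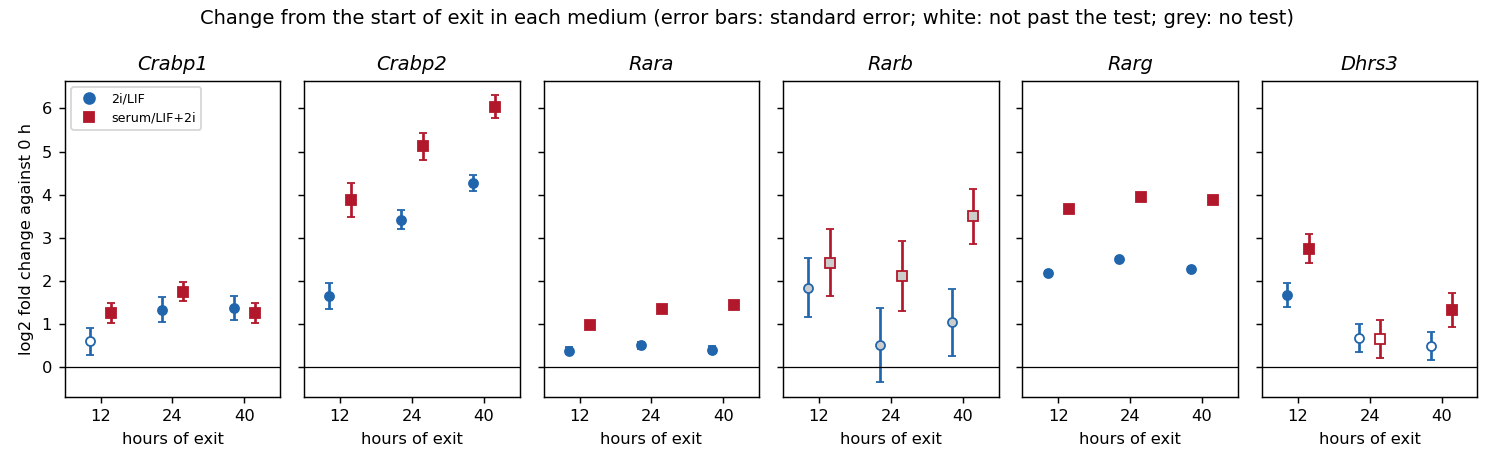
Log2 change against 0 h (vertical axis) at 12, 24 and 40 h of exit for the 5 tested genes and Rarb, with circles for 2i/LIF and squares for serum/LIF+2i. Error bars are standard errors, white symbols did not pass the test, and grey symbols (Rarb) have none. Crabp2, Rara and Rarg lie higher in serum/LIF+2i at all 3 times, and Dhrs3 is highest at 12 h.

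Before exit, 4 of the 5 genes differed between the media. In the serum arm at 0 h, 4 genes were called lower than in the 2i arm (18.4% of all genes were) and 0 higher (14.6% of genes): Rarg (log2 -1.26 ± 0.08 SE), Dhrs3 (-1.25 ± 0.44), Rara (-0.58 ± 0.10) and Crabp2. Their edgeR adjusted p values were 5.01e-30, 0.0191, 1.98e-07 and 0.00115. For Crabp2, with its 3 counts per library in the serum arm, the ratio of summed counts was 0.218 (95% counting interval 0.0733 to 0.545). The call for Dhrs3 was lost with DESeq2 (adjusted p = 0.0589), without replicate 2 of the 2i arm (edgeR adjusted p = 0.255) and without replicate 1 of the serum arm (edgeR adjusted p = 0.251). Crabp1 was not called at 0 h (edgeR adjusted p = 0.294).

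During exit this order broke up. At 12 h, 2 genes were higher in the serum arm (14.8% of all genes) and 0 lower (15.5%): Crabp1 (log2 1.12 ± 0.22 SE, edgeR adjusted p = 1.8e-05) and Rarg (0.23 ± 0.04 SE, edgeR adjusted p = 4.02e-07). At 24 h, 3 were higher (14.1% of genes), namely Crabp1, Rara and Rarg, and 2 lower (17% of genes), namely Crabp2 and Dhrs3. At 40 h, Rara (log2 0.47 ± 0.07 SE) and Rarg (0.34 ± 0.04) were higher (13.9% of genes), with edgeR adjusted p values of 2.39e-09 and 1.81e-13. As a description, the ratio of Rarb counts was 3.12 (95% counting interval 1.69 to 6.21). Crabp2 was lower by then (log2 -0.39 ± 0.09 SE, edgeR adjusted p = 0.000631; 13.4% of genes were called lower).

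Some of these calls were narrow. With DESeq2, Crabp2 had adjusted p = 0.059 at 24 h and 0.0676 at 40 h. At 24 h, leaving out replicate 2 of the 2i arm gave edgeR adjusted p = 0.052 for Crabp2 and 0.087 for Rara, and leaving out replicate 1 gave 0.0503 for Dhrs3. Without replicate 2 of the serum arm at 24 h, that of Crabp2 was 0.0643.

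**Figure D4:**
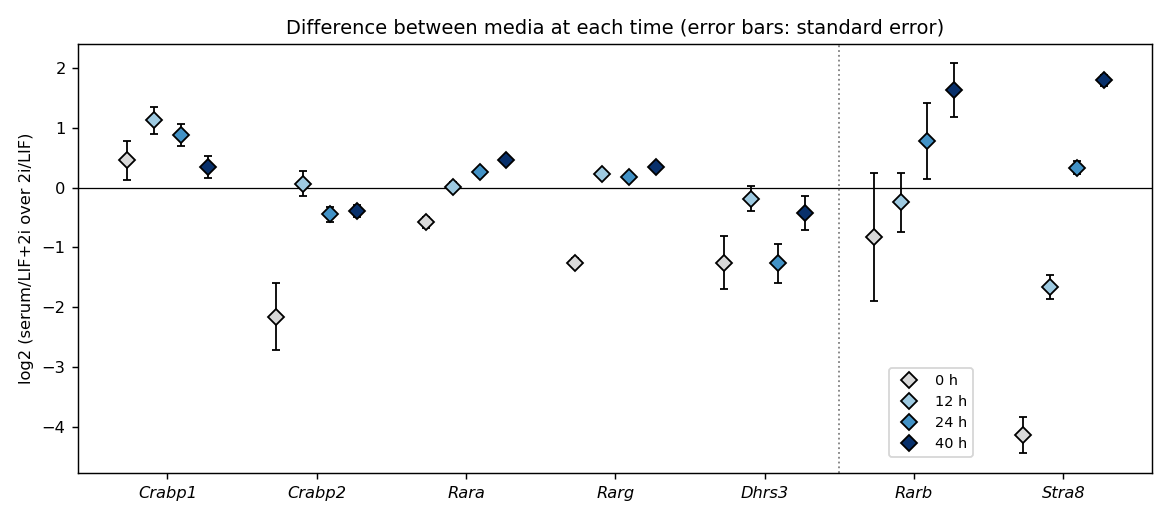
Log2 ratio of serum/LIF+2i over 2i/LIF (vertical axis) for each gene at 0, 12, 24 and 40 h, from light to dark symbols, with standard errors. Crabp2, Rara, Rarg and Dhrs3 lie below 0 at 0 h, and Rara and Rarg above it at 40 h. Rarb and Stra8, right of the dotted line, are shown without a test, and Stra8 runs from -4.14 to 1.79.

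A test of whether exit acted differently in the 2 media called 3 of the 5 genes at 12 h (4.8% of all genes were called higher), 3 at 24 h (9.77%) and 3 at 40 h (14.8%), and 0 of the 5 lower (4.4%, 11% and 12.8% of genes). The genes were Crabp2, Rara and Rarg each time. At 40 h Rarg rose 3.03-fold more in the serum arm than in the 2i arm (log2 1.60 ± 0.08 SE, edgeR adjusted p = 6.89e-34) and Rara 2.07-fold more (log2 1.05 ± 0.12 SE, edgeR adjusted p = 2.49e-13). For Crabp2 the fitted excess was 1.77 ± 0.58 (log2, SE, edgeR adjusted p = 0.0134), resting on the 3 counts per library at 0 h, and the call was lost when either of those libraries was left out (edgeR adjusted p = 0.0717 and 0.0689). At 24 h the call for Crabp2 was lost with DESeq2 (adjusted p = 0.0717) and without any 1 of the 4 libraries at 0 h (edgeR adjusted p from 0.0596 to 0.102). All 3 genes started lower in the serum arm, and at 40 h Crabp2 was lower there while Rara and Rarg were 1.38-fold and 1.27-fold higher. For Crabp1 and Dhrs3 the difference at 40 h was not called (log2 -0.11 ± 0.37 and 0.83 ± 0.53 SE).

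The wider pathway was described through 8 lists with 87 genes, of which 86 were in the table and 68 passed the filter. The median log2 change over all genes tested lay between -0.01 and 0.02 in every comparison. Of all genes, 34.1% were called higher and 34.7% lower by 40 h in the 2i arm, and 35.3% each way in the serum arm, which is the background of the 40 h counts below. A gene can pass the filter through its high groups, so these counts are a description. Of the retinoid transport genes, 5 of 9 passed. Of these, 4 rose and 0 fell by 40 h in the 2i arm, and 4 rose and 1 fell in the serum arm, with median log2 changes of 2.28 and 2.66. Stra6, the membrane receptor that takes up retinol from its blood carrier, went from 0.689 and 0 CPM to 4.63 and 5.57 in the 2i arm, and from 0.147 and 0.147 to 7.84 and 6.48 in the serum arm. Its count ratios were 15.7 (95% counting interval 5.91 to 59.2) and 49.0 (13.4 to 408).

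The synthesis enzymes did not move one way. Of 15 listed genes 10 passed, and by 40 h 2 rose and 5 fell in the 2i arm, while 3 rose and 6 fell in the serum arm. In the 2i arm this is near the shares of all genes. Aldh1a2, which makes retinoic acid from retinaldehyde, fell from 18.8 and 19.4 CPM to 2.13 and 4.08 in the 2i arm. It fell from 6.32 and 6.46 CPM to 2.33 and 3.58 in the serum arm, less than in the 2i arm (log2 difference 1.51 ± 0.35 SE, edgeR adjusted p = 0.000402). The retinaldehyde reductase Rdh11 rose by 1.35 ± 0.09 and 1.44 ± 0.09 (log2, SE) in the 2 media, and Rdh13 fell by 0.79 ± 0.10 and 0.83 ± 0.09. Adh5, an alcohol dehydrogenase with broad roles, was close to level in the 2i arm (log2 0.00 ± 0.04) and fell by 0.31 ± 0.04 in the serum arm. The breakdown enzymes Cyp26b1 and Cyp26c1 did not pass the filter.

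Of the partner receptors and the alternative carrier, all 5 listed genes passed. By 40 h, 2 rose and 0 fell in the 2i arm, and 3 rose and 0 fell in the serum arm, and the rises in the 2i arm are near the share of all genes. Rxrg, an RXR partner, had 0 counts at 0 h in both media and reached 10.4 and 11.1 CPM in the 2i arm and 17.9 and 22.2 in the serum arm at 40 h. By the lower 95% counting limit it was at least 35.7-fold and 73.2-fold higher (44.4-fold and 90.4-fold against 3 counts over the 0 h group). Rxrb was at 52.6 and 63.2 CPM at 40 h in the 2i arm, not called against 0 h (edgeR adjusted p = 0.32), and rose by 0.29 ± 0.08 (log2, SE) in the serum arm. Fabp5, the carrier that brings retinoic acid to Ppard, rose from 1.38 and 0.152 CPM to 7.26 and 8.42 in the 2i arm and from 3.09 and 3.08 CPM to 6.55 and 6.87 in the serum arm. The smaller rise in the serum arm was called (log2 difference -2.28 ± 0.54 SE, edgeR adjusted p = 0.000403) but rested on 9 counts at 0 h in the 2i arm, and without replicate 2 there it was -1.38 (edgeR adjusted p = 0.0624).

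Co-regulators of the receptors shifted by smaller amounts. All 10 passed, and by 40 h 0 rose and 7 fell in the 2i arm, while 4 rose and 3 fell in the serum arm, where the counts are near the shares of all genes. The co-activator Ncoa3 fell by 0.84 ± 0.04 and 1.02 ± 0.04 (log2, SE) and the co-repressor Ncor1 by 0.31 ± 0.04 and 0.16 ± 0.04. The acetyltransferases Ep300 and Crebbp rose by 0.40 ± 0.04 and 0.37 ± 0.07 in the serum arm. In the 2i arm, Crebbp fell by 0.30 ± 0.08 and Ep300 was not called (log2 -0.01 ± 0.04). Ncoa3 and Ncor1 share exonic sequence with genes on the other strand, so their counts may mix.

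Known retinoic acid targets differed between the media in opposite ways at 0 and 40 h. Of the 16 listed, 11 passed. By 40 h of exit, 3 rose and 6 fell in the 2i arm (median log2 -1.53), and 5 rose and 3 fell in the serum arm (median 0.06). At 0 h, 0 were higher (14.6% of all genes) and 5 lower (18.4%) in the serum arm (median log2 -0.36), and at 40 h 8 were higher (13.9% of all genes) and 0 lower (13.4%; median 1.04). The rise or fall to 40 h was called different between media for 5 of the 11, each higher in the serum arm (14.8% of all genes). Lefty1, an antagonist of Nodal signalling, rose by 1.30 ± 0.10 in the 2i arm and 3.47 ± 0.12 in the serum arm (log2, SE), a called difference (2.17 ± 0.17, edgeR adjusted p = 1.01e-20). Cdx1, a homeobox gene that also answers to Wnt signalling, fell in both media. It fell from 183 and 178 CPM to 1 count in each library in the 2i arm, and from 54.7 and 46.7 CPM to 0.948 and 1.26 in the serum arm. The count ratio in the 2i arm was 0.000723 (95% counting interval 8.75e-05 to 0.00261).

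Most of the germ cell and meiotic genes listed around Stra8 rose with exit in both media. Of the 16 listed, 13 passed. By 40 h, 10 rose and 2 fell in the 2i arm and 11 rose and 0 fell in the serum arm, with median log2 changes of 1.17 and 1.80. The change to 40 h was called higher in the serum arm for 7 (14.8% of all genes) and lower for 0 (12.8%). At 0 h, 0 of the 13 were higher (14.6% of genes) and 4 lower (18.4%) in the serum arm, and at 24 h 10 were higher (14.1%) and 2 lower (17%). Dazl, an RNA-binding protein of germ cells, fell from 53.1 and 55.6 CPM to 13.7 and 14.8 in the 2i arm and rose from 14.5 and 10.6 CPM to 23.3 and 23.5 in the serum arm (difference 2.83 ± 0.17 log2, SE, edgeR adjusted p = 3.73e-29). Mael, which protects germ cells from transposons, rose by 3.64 ± 0.22 and 4.44 ± 0.19. Dmrt1, a regulator of germ cell fate, rose by 1.45 ± 0.09 and 3.11 ± 0.11, a called difference (1.66 ± 0.15, edgeR adjusted p = 4.13e-17).

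All 14 listed repressors of germline genes passed the filter. By 40 h, 5 rose and 8 fell in the 2i arm, and 5 rose and 8 fell in the serum arm, and the rises in both are near the shares of all genes. At 40 h, 0 were higher (13.9% of all genes) and 7 lower (13.4%) in the serum arm than in the 2i arm, with a median log2 difference of -0.16, so the differences were small. The de novo DNA methyltransferases Dnmt3a and Dnmt3b rose by 4.14 ± 0.04 and 4.11 ± 0.04 (log2, SE) in the 2i arm and by 4.26 ± 0.05 and 3.43 ± 0.04 in the serum arm. For Dnmt3b the difference was called (-0.68 ± 0.06, edgeR adjusted p = 1.74e-16). L3mbtl2, of the E2f6 and Mga repressor complex, fell by 0.28 ± 0.05 and 0.66 ± 0.04. Dnmt3a and L3mbtl2 overlap genes on the other strand.

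Genes with group means most like those of each member were ranked by Pearson correlation of log2 CPM over the 8 groups, among 3328 genes that passed the filter and spanned at least 2 log2 units. For Stra8 the 5 nearest were Gm2016 (r = 0.977), 9930014A18Rik (0.973), Zscan4c (0.969), Tcstv1 (0.969) and H2-Bl (0.96). Zscan4c and Tcstv1 are best known from 2-cell embryos and from a rare state of ES cells that resembles them. Zscan4c had 0 and 0 counts at 0 h in the serum arm and 120 and 83 at 40 h, against 14 and 7, then 34 and 31, in the 2i arm. Gm2016 had 0 and 0 counts, then 37 and 24, against 6 and 8, then 13 and 17. Zscan4c, Tcstv1 and Gm2016 have near-identical copies and H2-Bl is a pseudogene of the histocompatibility family, so their counts are uncertain, and 9930014A18Rik overlaps Fam84b.

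**Figure D5:**
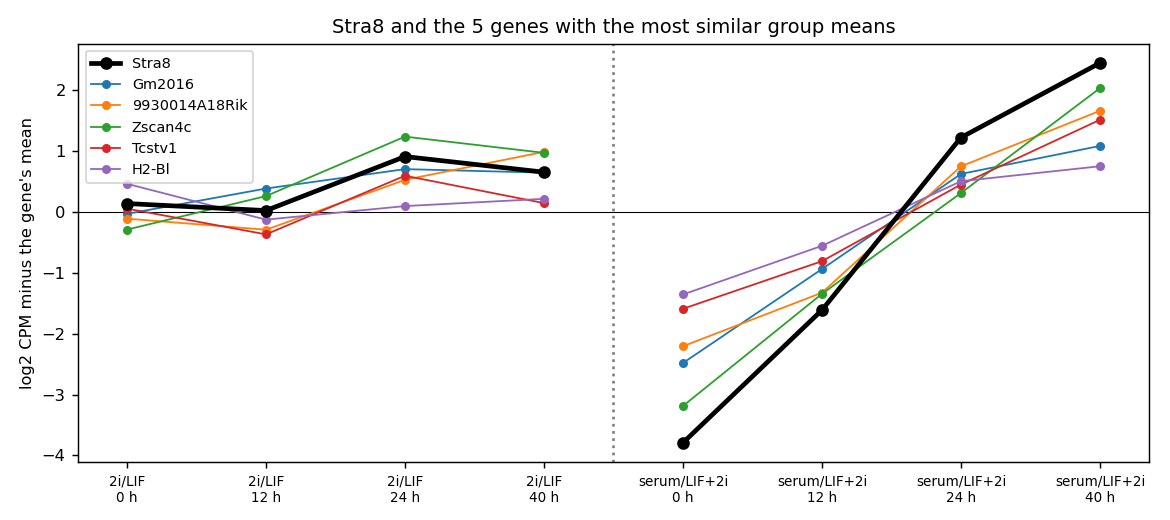
Log2 CPM of group means minus each gene's own mean (vertical axis) for the 8 groups, 2i/LIF on the left and serum/LIF+2i on the right of the dotted line. Stra8 is the thick black line, and the 5 genes most like it are thin. All 6 lines are lowest at 0 h in serum/LIF+2i and highest at 40 h in serum/LIF+2i.

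For the other members, genes among the 3 nearest were of other kinds. Crabp2 went with Lss (r = 0.998), an enzyme of cholesterol synthesis, the transcription factor gene Sox4 (0.994) and Zfp467 (0.991). Rarg went with the amino acid transporter gene Slc7a7 (0.988) and Tcf15 (0.985), a transcription factor of somite mesoderm. Rara went with Zhx1 (0.978), Sft2d2 (0.975) and Hmgn3 (0.974), and Crabp1 with Adad2 (0.964), Adamts14 (0.962) and Plk5 (0.953). The nearest genes of Dhrs3 were Gstm7 (0.919), Tgm3 (0.913) and Fgfbp1 (0.899), and Rarb went with 2810468N07Rik (0.914) and Cpm (0.879). Among the members, Rara and Rarg were the most alike (r = 0.944 over 8 groups) and Crabp1 and Dhrs3 the least (0.0766). These correlations share libraries and depth between the points and carry no test.

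The marker lists moved with time in the same libraries. The summed level of 8 ES cell markers fell from 5604 to 5625 CPM at 0 h to 915 to 916 CPM at 40 h in the 2i arm, and from 6005 to 6089 CPM to 924 to 936 CPM in the serum arm, while Pou5f1 stayed at 635 to 707 CPM in the means of these groups. The sum of 5 formative epiblast markers rose from 154 to 161 CPM to 2499 to 2792 CPM in the 2i arm. It rose from 171 to 182 CPM to 1953 to 2063 CPM in the serum arm. Most of the sum at 40 h was Dnmt3b, with means of 2221 and 1730 CPM. From 24 to 40 h in the serum arm, mean Otx2 fell from 92.7 to 10.3 CPM and Fgf5 from 6.24 to 3.17 CPM. In the 2i arm Otx2 went from 81.4 to 62.4 CPM and Fgf5 from 11.3 to 17.2 CPM. Pou3f1 and Lef1 rose over that step in both media. The 6 germ cell markers summed to 234 to 244 CPM at 0 h in the 2i arm and 174 to 181 CPM in the serum arm, and at 40 h to 39.8 to 43.2 CPM and 60.4 to 60.8 CPM. This list shares Dazl and Ddx4 with the list of meiotic genes, and Prdm14 and Nanos3 in it had at most 10 counts per group at 40 h. Most of the fall was Prdm14, with means from 93.2 to 0.585 CPM in the 2i arm and from 91.3 to 0.371 CPM in the serum arm, and Tfap2c. Mean Ddx4 rose instead, from 4.99 to 19.7 CPM in the 2i arm and from 3.97 to 30.8 CPM in the serum arm. Dazl fell from 54.3 to 14.2 CPM in the 2i arm and rose from 12.6 to 23.4 CPM in the serum arm.

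Markers of other cell types moved too. The 7 neural progenitor markers summed to 4.83 to 5.92 CPM at 0 h and 34.7 to 39.0 CPM at 40 h in the 2i arm. In the serum arm they summed to 22.3 to 27.0 CPM and 60.8 to 66.2 CPM. The rise of the sum was not shared by all 7, since mean Olig2 fell from 20.1 to 8.56 CPM in the serum arm. At 40 h the sum was mostly Sox1, with means of 22.6 and 47.2 CPM. Neurog2 and Hes5 then had 0 counts in the 2i arm and 1 in the serum arm. The sum of the 8 primitive endoderm markers went from 6.23 to 6.72 CPM at 0 h to 12.4 to 14.8 CPM at 40 h in the 2i arm. For the serum arm it went from 6.46 to 6.90 CPM to 17.9 to 18.9 CPM. Most of this rise was Dab2, with means from 1.12 to 8.43 CPM in the 2i arm and from 2.72 to 9.77 CPM in the serum arm. Not all 8 rose, since in the 2i arm mean Gata4 went from 2.27 to 1.59 CPM and Pdgfra from 2.37 to 0.873 CPM. In the serum arm mean Gata4 went from 2.42 to 3.71 CPM and Pdgfra from 0.881 to 0.829 CPM. The sum of the 6 trophoblast markers went down, from 87.0 to 91.0 CPM to 26.9 to 28.7 CPM in the 2i arm. In the serum arm this sum went from 87.8 to 89.3 CPM to 29.6 to 30.9 CPM. Most of the fall was Tfap2c, which is also in the germ cell list. Its means went from 62.8 to 1.75 CPM in the 2i arm and from 55.4 to 3.77 CPM in the serum arm. Krt18 rose instead, from 1.67 to 19.5 CPM and from 4.48 to 16.9 CPM. The sum of the 6 mesoderm markers went from 30.5 to 37.6 CPM to 4.13 to 4.62 CPM and from 20.4 to 27.9 CPM to 6.03 to 6.68 CPM. The 5 fibroblast markers stayed at or under 10.5 CPM in all groups. The part of these markers in the levels of the retinoic acid genes was not tested.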

How the data were processed

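RNA was extracted with TRIzol and made into libraries with a stranded poly(A) kit, per the labels' protocols. The authors deposited raw read counts per gene for the 16 libraries; the submitters' processing notes name fastp, STAR, featureCounts and mm10. The annotation and the strand setting are not given in the sources used here. The protocol text gives 24 or 40 h for serum/LIF+2i, whereas titles also name 12 h, and the titles were followed.

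Genes passed edgeR's filterByExpr (minimum count 10, total 15), which left 14288 of 27179. Counts were scaled by TMM, and 1 model with a term per group was fitted to all 16 libraries with edgeR 4.0.16 (R 4.3.3, limma 3.58.1; 8 residual degrees of freedom). Quasi-likelihood tests were two-sided, in 17 comparisons, with Benjamini-Hochberg adjustment over all genes tested and calls at an adjusted p under 0.05. CPM are counts scaled to the library total, and a floor of 3 counts was below 1 CPM in every library. Count ratios carry exact 95% intervals. The scripts were tested on simulated data. Alternatives were DESeq2 1.42.0, other scalings and filters, a replicate block and leaving out each library.

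The members and lists were chosen with earlier results of these data known. Rarb stayed in the fit but is left out of the counts of calls, since it passed the filter only where it was high. Beside the 8 members, up to 2 genes with the smallest adjusted p and a mean of at least 1 CPM were named from each list for each of the 2 exit effects at 40 h and their difference. Log2 CPM for the likeness ranking used a prior count of 2, with 5 genes named for Stra8 and 3 for each other member. Meiosin was not analysed here, and some genes that these rules select are not reported here.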

Additional observations from a re-analysis of the deposited data

Results flagged for a closer look

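The results here differed between the 2 media by the test of the difference itself, as the log2 change from 0 h in serum/LIF+2i minus that in 2i/LIF. Crabp2 differed by 2.22 at 12 h, 1.71 at 24 h and 1.77 at 40 h. Rara differed by 0.60, 0.84 and 1.05 at the same times, and Rarg by 1.49, 1.44 and 1.60. Both receptors had a lower start in serum/LIF+2i and a higher level at 40 h, in 2 of 2 libraries each.

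Of the pathway genes named at 40 h, the synthesis enzyme Aldh1a2 differed by 1.51 and Adh5 by -0.31. Fabp5 differed by -2.28, on 9 counts at 0 h in 2i/LIF. The acetyltransferases Ep300 and Crebbp differed by 0.40 and 0.67. Among the targets, Lefty1 differed by 2.17. Among germ cell genes, Dazl differed by 2.83 and Dmrt1 by 1.66. Among the repressors, Dnmt3b differed by -0.68 and L3mbtl2 by -0.38.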

How the results depend on the processing

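Of the members' and pathway genes' log2 changes under the alternatives, 1924 were kept, 28 lost their call, 4 gained one and 15 changed sign, all 15 of them uncalled. A kept change held its direction and its side of the threshold. For Stra8 and Rarb, which have no test, a kept change held its direction and moved by less than 1 SE. A further 30 changes of Stra8 and Rarb moved by more than 1 SE. The number of members called was within 1.5 times the reported one in 230 alternatives and outside it in 3. Of these, DESeq2 gave 1 for the step from 24 to 40 h in serum/LIF+2i, as did leaving out replicate 1 at 24 h there, and leaving out replicate 2 of 2i/LIF at 24 h gave 3 between media at that time. With 1 library left out, 4 members were called at 12 h of exit from 2i/LIF, from 4 to 5 at 24 h and 4 at 40 h. After serum/LIF+2i 5, 4 and from 4 to 5 were called at those times. For the steps the ranges were 3 to 4, then 2 to 2, for 2i/LIF. They were 4 to 5, then 1 to 2, for serum/LIF+2i. Between media they were 3 to 4, 2 to 2, 3 to 5 and 3 to 3 at 0, 12, 24 and 40 h, and for the differences in exit 3 to 3, 2 to 3 and 2 to 3. The alternatives also included counting Rarb as a member, a choice made after seeing the data. Its calls carry no weight, since Rarb passed the filter only where it was high.

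Over the whole table, DESeq2 called 3097, 2668, 2717 and 2005 genes between media at the 4 times, where edgeR called 4710, 4334, 4439 and 3897. For the differences in exit it called 576, 1764 and 2397, where edgeR called 1315, 2966 and 3940. Leaving out the replicate 1 library of 2i/LIF at 40 h gave 2257 by edgeR between media at that time.

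Changes of sign came with single libraries left out, except 1. In 2i/LIF, Rarb from 0 to 24 h ranged from -1.43 to 1.37 when a 24 h library was left out, and from 24 to 40 h from -0.31 to 2.49. From 24 to 40 h in 2i/LIF, Crabp1 ranged from -0.012 to 0.11 and Dhrs3 from -0.45 to 0.092. Between media, Rara at 12 h ranged from -0.029 to 0.066, Rarb at 12 h from -0.47 to 0.019, and Rarb at 24 h from -0.065 to 2.74. For the difference in exit, Dhrs3 at 24 h ranged from -0.46 to 0.65 and was 0.000317 with DESeq2, and Crabp1 at 40 h ranged from -0.35 to 0.10. The cause was not tested.

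With the replicate number as a block, 4, 4 and 4 members were called at 12, 24 and 40 h of 2i/LIF exit, and 5, 4 and 5 for the other medium, as without it, and no member's call changed. The labels do not say what the replicate numbers share, and differences between replicates 1 and 2 correlated from -0.0230 to 0.0331 over 28 pairs of groups. With AGGTCA as the only hexamer, a DR5 stood in a window of 0 of the 7 genes, in place of 2. With a prior count of 0.5, the genes most like Stra8 were the same 5, and over 16 libraries 4 of 5 were shared.

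Depth limits Rarb, Cyp26a1, Dhrs3 at 0 h and Crabp2 at 0 h in serum/LIF+2i. With 2 libraries per group, 1 library decided several of these calls. Reads cannot tell a change in all cells from one in a few. The media differ in serum, base and supplements together, so no component can be named.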

Other observations

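The genes most like Stra8 included Zscan4c and Tcstv1, so their gene families were summed after these values were seen. The 6 Zscan4 genes, known from 2-cell embryos, summed to 7.41 and 7.44 CPM at 0 h in 2i/LIF and 23.9 and 33.7 CPM at 40 h. In serum/LIF+2i they summed to 1.47 and 1.62 CPM at 0 h, 3.51 and 3.09 at 12 h, 16.6 and 16.4 at 24 h, and 55.2 and 54.6 at 40 h. As with Stra8, the serum/LIF+2i libraries were below those of 2i/LIF at 0 and 12 h and above them at 40 h, without overlap. At 24 h they were below those of 2i/LIF, at 27.9 and 32.7 CPM, where Stra8 was above.

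The 2 Tcstv genes did not share that pattern throughout. They summed to 1.38 and 0.759 CPM at 0 h and 0.751 and 1.77 CPM at 40 h in 2i/LIF, which overlap, and to 0.441 and 0 CPM, then 3.62 and 3.97 CPM, in serum/LIF+2i. At 12 h the media overlapped, at 1.37 and 0.267 CPM against 0.270 and 0.532 CPM.

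The 5 Usp17l genes summed to 2.07 and 1.67 CPM at 0 h and 8.52 and 11.8 CPM at 40 h in 2i/LIF, and to 1.32 and 0.734 CPM, then 14.0 and 14.8 CPM, in serum/LIF+2i. The 7 Tdpoz genes had 0.862 and 0.608 CPM at 0 h and 1.88 and 2.85 CPM at 40 h in 2i/LIF, and 0.588 and 0.294 CPM, then 6.72 and 6.39 CPM, in serum/LIF+2i. These genes lie in near-identical copies, so reads may be split or lost between them, and the sums are a description without a test.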
